A study of Mus musculus with 12 samples.

Results

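Chemokines are small secreted proteins that set the path of migrating leukocytes, and 46 mouse genes for chemokines and their receptors were followed here across lung tumours, adjacent lung and sorted alveolar cells. The members were taken by gene symbol from a given list of family names, and all 46 were found among the 56262 gene identifiers of the lung count table and the 54532 of the alveolar cell table. They comprise 31 ligands (18 of the CC type and 13 of the CXC or CX3C type) and 15 receptors, of which 12 are conventional and 3 are atypical. All mice were C57BL/6. Lung tumours and adjacent normal lung came from the same 3 animals, mice 102, 217 and 224, at 18 months of age, and all 3 carried a deletion of Med23, a subunit of the Mediator complex, in T cells. Flow cytometry at 6 months gave alveolar type 2 (AT2) cells, which make surfactant, from wild-type animals 176, 177 and 190 and from animals 175, 179 and 191 with the same T cell deletion of Med23. The line that drove the deletion is not given in the sources used here. Both lung groups carry the deletion, so the lung comparison sets tumour against adjacent tissue and not knockout against wild type. According to the series' own description, the first comparison was made to learn the type and features of the tumours, and the second to describe AT2 cells before tumours arose.

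A chemokine acts by binding a receptor with 7 membrane-spanning helices on a leukocyte, and the cell then moves up the gradient of the ligand. CC and CXC chemokines are named for the spacing of their first cysteines, and Cx3cl1 is a membrane-anchored ligand that can be shed. Atypical receptors bind chemokines without the usual G protein signal and remove them from the tissue. In the lung, epithelium, endothelium, macrophages and stromal cells each make their own chemokines, some steadily and some only after inflammatory stimuli.

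Cxcl3, the called member with the largest rise in the tumours in the fit without the mouse as a block, lies on chromosome 5 in a row of CXC genes with Cxcl5, Cxcl15, Cxcl1 and Cxcl2. The 150 bases before the RefSeq transcript start of Cxcl3 and of 3 of its neighbours are shown, on the plus strand of GRCm38.p6, because Cxcl3 was called in this cluster and the other 3 were not in that fit. Capitals mark matches to the NF-kB motif GGGNNTTTCC on either strand, and no other motif is marked. NF-kB is the transcription factor known for switching on inflammatory chemokines.
Cxcl3, chr5:90785951-90786100: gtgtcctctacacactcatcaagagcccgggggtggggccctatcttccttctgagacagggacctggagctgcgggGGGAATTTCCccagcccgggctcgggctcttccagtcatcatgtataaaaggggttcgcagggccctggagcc
Cxcl15, chr5:90794384-90794533: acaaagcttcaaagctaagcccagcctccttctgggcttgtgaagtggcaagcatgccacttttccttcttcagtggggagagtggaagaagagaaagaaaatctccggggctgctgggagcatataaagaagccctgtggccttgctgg
Cxcl1, chr5:90891095-90891244: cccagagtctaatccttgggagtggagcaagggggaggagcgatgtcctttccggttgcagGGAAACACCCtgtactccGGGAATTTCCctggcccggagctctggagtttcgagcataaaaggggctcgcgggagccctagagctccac
Cxcl2, chr5:90903749-90903898: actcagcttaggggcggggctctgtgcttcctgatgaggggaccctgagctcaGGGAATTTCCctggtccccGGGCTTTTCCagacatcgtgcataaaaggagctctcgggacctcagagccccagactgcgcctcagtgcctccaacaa
The same 10 letters GGGAATTTCC begin 73 bases before the start of Cxcl3, 71 before that of Cxcl1 and 97 before that of Cxcl2. Cxcl1 has a second match on the opposite strand at 89 bases, and Cxcl2 a second one at 78 bases. The window of Cxcl15 holds no match. Over windows of 250 bases before to 50 after the start, the motif was found in 535 of 32851 mouse promoters (1.63%) and in 6 of the 35 members with a promoter in the RefSeq table, namely Ccl9, Ccl20, Ccr3, Cxcl1, Cxcl2 and Cxcl3. The letters TGANTCA (AP-1) were in 7.81% of all promoters and in 6 of the 35 members, and GAAANNGAAA (the interferon response element) in 3.44% and in 3. These matches describe the letters only.

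The lung libraries held 65163100 to 77951014 counts and the AT2 libraries 15943084 to 18913242. Levels are in CPM, counts scaled to a common library size after TMM normalisation. Both libraries of mouse 217 stood apart from the other lung libraries, with levels that fell with exon length relative to the rest (Spearman rho across genes of -0.273 in the tumour and -0.240 in the adjacent tissue, against 0.101 to 0.257). The same held for wild-type AT2 libraries 176 and 177 (-0.171 and -0.225, against 0.111 to 0.328). The members are short, with a median of 2097.5 bases of exon against 3513 over the genes tested in lung. Adjacent lung 102 stood apart in another way: the 6 markers of alveolar macrophages summed to 495 CPM there and to 7817 and 7493 CPM in adjacent lung 217 and 224. Most of each sum was Chil3, at 339, 7439 and 7156 CPM. The part of these differences in the results was not tested. Med23 was at log2 fold changes of -0.02 ± 0.36 in lung and 0.15 ± 0.15 in AT2 cells, and since the deletion was in T cells it checks no label.

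In tumours, the neutrophil chemokine Cxcl3 and the membrane-anchored Cx3cl1 rose. The eotaxins Ccl11 and Ccl24, the stromal chemokine Cxcl12 and the atypical receptors Ackr3 and Ackr4 fell, in edgeR's quasi-likelihood test without the mouse as a term, with an adjusted p under 0.05. Of the 46 members, 43 passed the filter on low counts, and Ccl19, Ccr3 and Ccr6 were not tested. Of these, 2 were called higher (4.65%), where 2.86% of the 19995 genes tested were, and 5 were called lower (11.6%), where 7.18% of all genes were. The median log2 fold change, tumour over adjacent, was -0.97 over the 43 members and 0.04 over all genes tested, and 32 of the 43 were negative. It was -0.83 for the 30 tested ligands and -1.37 for the 13 tested receptors. Within the ligands it was -1.33 for the 17 CC and -0.23 for the 13 CXC or CX3C members. Setting Ccl24, which had 0 counts in tumours, to its lower bound left the 43-member median at -0.97. Scaling by library totals in place of TMM moved the median of all genes to -0.18 and that of the members to -1.22.

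**Figure D1:**
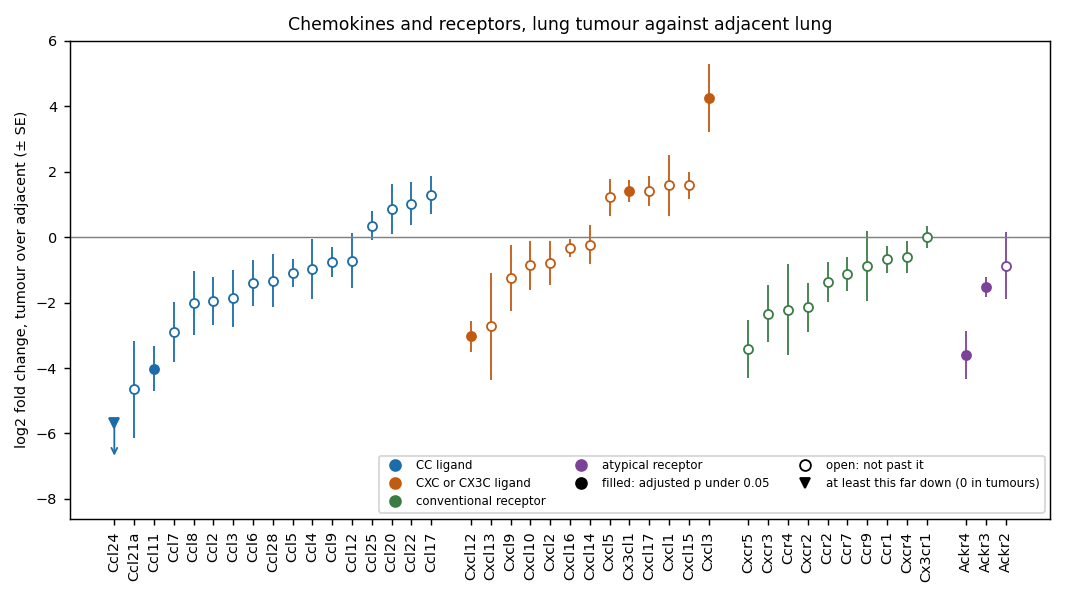
Log2 fold change of each tested member, tumour over adjacent lung, ± SE, from 3 libraries a group, ordered within its class. Filled symbols passed an adjusted p of 0.05, and the triangle for Ccl24 marks a lower bound on a fall. Of 43 members, 32 lie below 0, and 12 of the 13 receptors do.

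The mice supply a pairing, since tumour and adjacent lung of 1 number came from 1 animal. With the mouse as a block in the fit, 3 members were called higher (Ccl17, Cxcl15 and Cx3cl1), where 5.57% of all genes were, and 6 lower (Ccl11, Cxcl12, Ccr2, Cxcr5, Ackr3 and Ackr4), where 9.34% were. All 3 tumours lay above all 3 adjacent libraries in 4 tested members (9.3%, against 11.6% of all genes) and below them in 12 (27.9%, against 18.9%). Within the mice, the tumour was higher in all 3 in 8 of the 43 members (18.6%, against 28.2% of all genes), all of them among the 30 ligands tested. It was lower in all 3 mice in 20 members (46.5%, against 29.3%), 12 of them ligands. Summed over the 15 receptors, the tumours held 113, 138 and 101 CPM (mice 102, 217 and 224, the order used throughout) and the adjacent libraries 206, 298 and 220 CPM, with no overlap. In whole tissue, fewer cells of a type and less RNA per cell cannot be told apart.

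The CC ligands called lower in the fit without the block were the eotaxins, which draw eosinophils through the receptor Ccr3. Ccl11 (eotaxin-1, chromosome 11, 82057823 to 82062955) was at 0.298, 0.175 and 0.175 CPM in tumours and at 4.92, 1.77 and 3.91 CPM in adjacent lung. All tumours were well below all adjacent libraries, a 16.2-fold lower level (log2 fold change -4.02 ± 0.68, adjusted p = 0.0149). The call was lost without tumour 224, adjacent 102 or adjacent 224 (adjusted p up to 0.0559). Ccl24 (eotaxin-2, chromosome 5, 135569937 to 135573049) had 0 counts in all tumours and 0.301, 0.375 and 1.62 CPM in adjacent lung, 174 counts in all. Against a floor of 3 counts over the tumours, which covers counting error only, it was at least 51.6-fold lower (adjusted p = 0.0324). The call did not hold with the mouse as a block (0.0651) or when any 1 library other than tumour 217 was left out (up to 0.104). Ccr3 itself, with 0 counts in tumours and 48 in adjacent lung, was too low to be tested.

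Ccl6, a chemokine of macrophages and other myeloid cells, had the highest level per kilobase of exon of any CC ligand in both tissues, 234 ± 127 CPM per kb in tumours and 619 ± 435 in adjacent lung (SD, n = 3). Its CPM was 684, 289 and 290 in tumours and 247, 1325 and 1764 in adjacent lung, so adjacent 102 lay below all tumours and the other adjacent libraries above them (log2 fold change -1.40 ± 0.71, adjusted p = 0.293). The summed alveolar macrophage markers were lowest in adjacent 102 too, as the plots of members beside markers show. Most of that sum was Chil3, at 339 CPM in adjacent 102 and at 7439 and 7156 CPM in adjacent 217 and 224. Of the single markers, Chil3 and Pparg were lowest there among all lung libraries, and Marco, Siglecf, Ear2 and Plet1 were not. Ccl6 amounted to 25.5% to 33.7% of the summed markers in tumours and to 16.9% to 49.8% in adjacent lung. Their part in the result was not tested.

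Ccl21a, a ligand of Ccr7 that lymphatic vessels use to admit dendritic cells and T cells, was at 6.17, 0 and 1.41 CPM in tumours and at 38.1, 99.3 and 52.6 CPM in adjacent lung. The groups did not overlap, but the gene was not called (log2 fold change -4.65 ± 1.48, adjusted p = 0.0942). It passed without tumour 217 (0.0258). The value of 0 in tumour 217 touches a problem of counting, because this gene has near-identical copies in the mouse genome. In that library the identifier on chromosome 4 had 0 counts while one copy, Gm10591, had 2088. Copies that share at least 95% of their letters over at least 200 bases were summed with Ccl21a, a step chosen after these values were seen. The sum also holds the second Ccl21a identifier and Ccl21c, for which no identity is listed. These 7 identifiers gave 18.8, 63.5 and 7.32 CPM in tumours and 143, 460 and 234 CPM in adjacent lung. On that scale Ccl21 fell (log2 fold change -3.22 ± 0.83, adjusted p = 0.0499). Ccl19, the other ligand of Ccr7, has such copies too. Summed over 6 identifiers, with its own second identifier among them, it stood at 0, 0.987 and 0 CPM in tumours and 0.664, 5.50 and 3.72 CPM in adjacent lung.

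Ccl17, a dendritic cell and macrophage product that binds Ccr4, went the other way. It was at 23.9, 26.1 and 10.7 CPM in tumours and at 7.04, 14.3 and 3.45 CPM in adjacent lung. The tumour value was higher in each mouse while the groups overlapped, and Ccl17 was called with the mouse as a block (log2 fold change 1.42, adjusted p = 0.0366) and not without it (1.29 ± 0.59, adjusted p = 0.234). It lies on chromosome 8 (94810453 to 94812036) next to Cx3cl1 (94772009 to 94782427) and Ccl22 (94745590 to 94751699). Ccl22, also a ligand of Ccr4 and named here for its position after its values were seen, was at 48.9, 13.4 and 18.0 CPM in tumours and 5.86, 23.5 and 10.3 in adjacent lung, with overlap. Ccl25, known as the ligand of Ccr9 in gut and thymus, stayed between 2.58 and 5.07 CPM in all 6 libraries (adjusted p = 0.718).

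The other 11 tested CC ligands did not pass, with fold changes from -2.90 (Ccl7) to 1.02 (Ccl22) on the log2 scale. The CC ligands on chromosome 11, Ccl11 and Ccl6 among them, form 2 groups of neighbours. Ccl2, Ccl7, Ccl11, Ccl12 and Ccl8, the first group, and Ccl5, Ccl9, Ccl6, Ccl3 and Ccl4, the second, all had a lower mean in tumours than in adjacent lung. Of these 10, only Ccl11 was called.

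**Figure D2:**
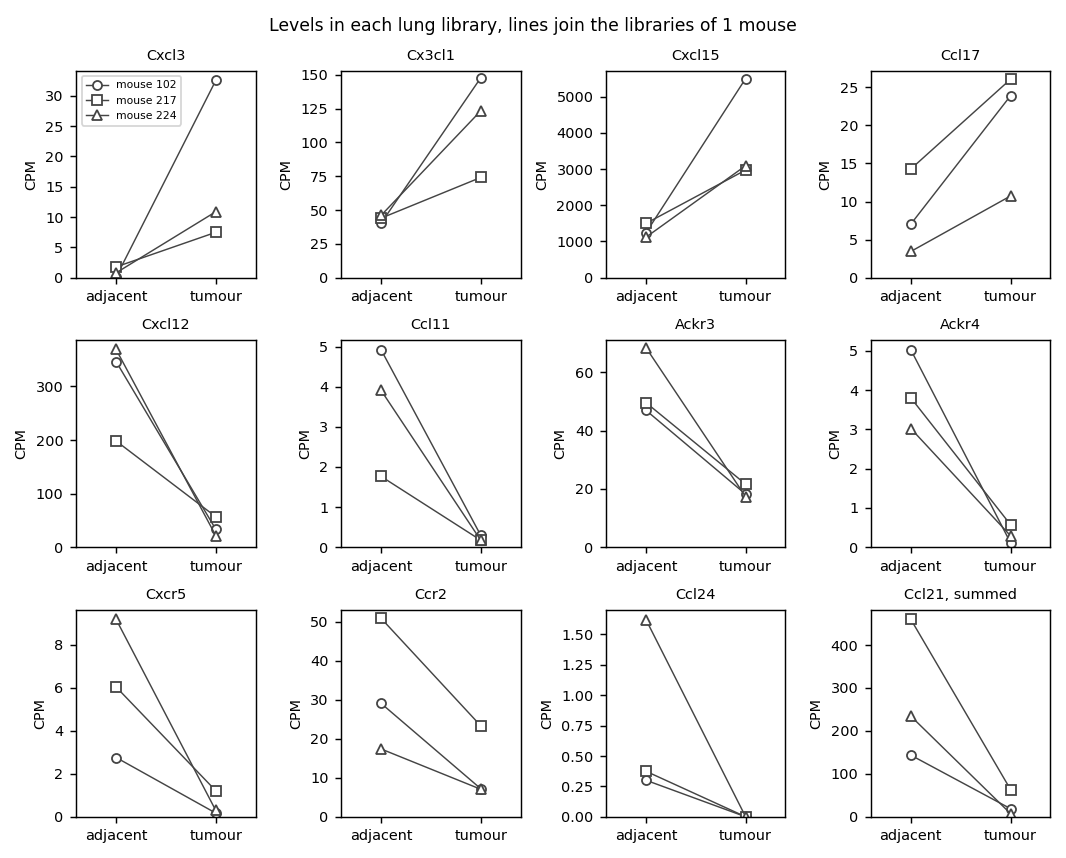
CPM in adjacent lung and tumour for the members called in either fit, and for Ccl21 summed over 7 identifiers. Each panel has a line for each of the 3 mice and a separate linear axis from 0. All 3 lines rise for Cxcl3, Cx3cl1, Cxcl15 and Ccl17 and fall in the other 8 panels.

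Cxcl3 and Cx3cl1 were the ligands called higher in the fit without the mouse, while with the mouse as a block Ccl17, Cxcl15 and Cx3cl1 were called. Cxcl3 (chromosome 5, 90786103 to 90789600), which draws neutrophils through Cxcr2, was at 32.5, 7.48 and 10.9 CPM in tumours and at 0.113, 1.78 and 0.798 CPM in adjacent lung. Every tumour was above every adjacent library, and the lead was widest in mouse 102, whose adjacent lung was the lowest. The level was 18.9-fold higher in tumours (log2 fold change 4.24 ± 1.04, adjusted p = 0.0415). The call was lost with the mouse as a block (0.0972), without the filter on low counts, and when any 1 library other than tumour 217 was left out (adjusted p up to 0.138). Its promoter is the first of those printed above, with the NF-kB letters at 73 bases. The neutrophil markers did not rise with it: their summed level was 28.3 to 119 CPM in tumours and 58.3 to 958 CPM in adjacent lung, and of 5 markers none rose and 1 fell. Cxcr2, the receptor of Cxcl3, was not called (log2 fold change -2.14 ± 0.75, adjusted p = 0.123).

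Cx3cl1, or fractalkine, which tethers monocytes and lymphocytes to epithelium and endothelium, was at 148, 74.1 and 123 CPM in tumours and at 40.3, 44 and 46 CPM in adjacent lung. The adjacent values lay close together and all tumours were above them, a 2.65-fold higher level (log2 fold change 1.41 ± 0.33, adjusted p = 0.0385). The call held with the block (0.0354). It was lost under library totals, without the filter on low counts, and when any 1 library other than tumour 217 was left out (adjusted p up to 0.122). Its receptor Cx3cr1 differed by 0.01 ± 0.34 on the log2 scale (adjusted p = 0.990).

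Cxcl15, or lungkine, is a chemokine made by lung epithelium that draws neutrophils, and per kilobase it was the highest CXC ligand in all 4 groups. In tumours it stood at 1812 ± 670 CPM per kb, the 19th highest of 21974 protein-coding genes, and in adjacent lung at 604 ± 91.7, the 49th. Its CPM was 5498, 2972 and 3092 in tumours and 1238, 1498 and 1117 in adjacent lung. The groups did not overlap, with a 3.0-fold difference that missed the threshold without the block (log2 fold change 1.59 ± 0.42, adjusted p = 0.0526) and passed with it (0.0398). It took 74.8% to 80.4% of the summed ligand CPM in tumours and 29.7% to 55.7% in adjacent lung. The summed AT2 markers were also higher in tumours, 70266 to 222621 CPM against 20571 to 40458, and 2 of 6 rose. Most of each sum was Sftpc, at 38768, 182981 and 55003 CPM in tumours and 13009, 31494 and 15965 CPM in adjacent lung. Cxcl15 was equal to 7.82%, 1.34% and 3.35% of the summed markers in tumours and to 6.02%, 3.7% and 4.25% in adjacent lung, ranges that overlap. The part of AT2 cell number in its level was not tested.

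Cxcl17, a mucosal chemokine, and Cxcl5, a neutrophil chemokine of alveolar epithelium, were also higher in the tumour of each mouse without being called. Cxcl17 was at 308, 231 and 113 CPM in tumours and 67.3, 117 and 60.1 in adjacent lung (log2 fold change 1.42 ± 0.46, adjusted p = 0.0968, and 0.0523 with the block). Cxcl5 was at 20.6, 12.6 and 11.5 CPM in tumours and 2.34, 8.99 and 7.97 in adjacent lung, with all tumours above (1.21 ± 0.55, adjusted p = 0.239). Cxcl1 and Cxcl2, named for their place in the cluster after their values were seen, differed in sign. Cxcl1 had 5.53, 19.0 and 22.1 CPM in tumours against 0.601, 10.2 and 4.78 (log2 fold change 1.58 ± 0.93, adjusted p = 0.371), and Cxcl2 had 1.08, 1.51 and 1.98 against 0.864, 3.64 and 3.49 (-0.80 ± 0.67, adjusted p = 0.551). Neither gene was called. Both share the 10 NF-kB letters with Cxcl3, and no relation of these letters to the levels was tested.

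**Figure D3:**
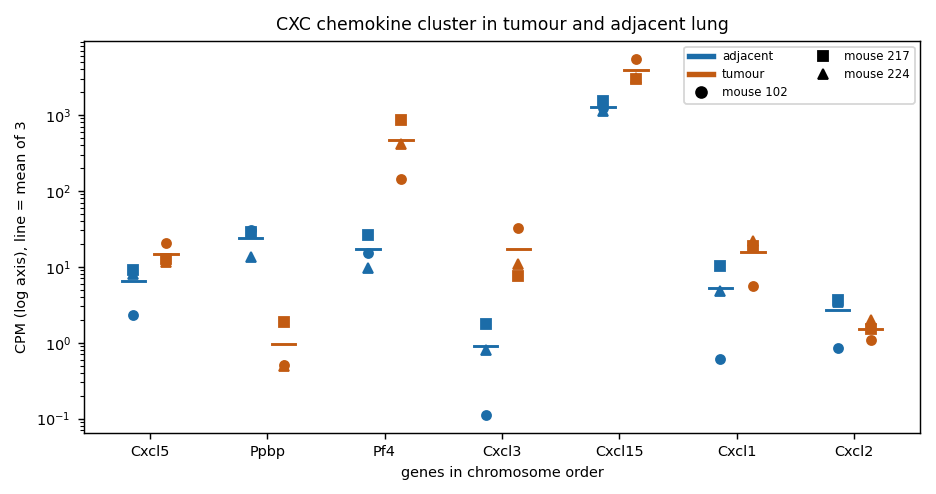
CPM on a log axis for the 7 CXC chemokine genes of chromosome 5 in chromosome order, with 1 symbol per mouse and a line at the mean of 3. Cxcl5, Pf4, Cxcl3 and Cxcl15 stand higher in all tumours than in all adjacent libraries and Ppbp lower, while Cxcl1 and Cxcl2 overlap between tissues.

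Cxcl12 fell, with and without the mouse as a block. This CXC ligand (chromosome 6, 117168535 to 117181367) is made by endothelium and stromal cells and holds leukocytes and progenitors through Cxcr4. It was at 33.5, 56.8 and 21.6 CPM in tumours and at 346, 198 and 369 CPM in adjacent lung. The lowest adjacent value was far above the highest tumour, an 8.16-fold lower level in tumours (log2 fold change -3.03 ± 0.47, adjusted p = 0.0122). The call was lost without tumour 102 (0.0530) and held in the fits without each other library. The endothelial markers fell with it, 5 of 5, from 2382 to 3821 CPM summed in adjacent lung to 503 to 547 CPM in tumours. The fibroblast markers summed to 1271 to 1661 and 460 to 958 CPM, and 0 of 5 fell. Their part in the fall of Cxcl12 was not tested. Cxcl16, which is membrane-anchored like Cx3cl1, was at 56.7, 55.8 and 57.3 CPM in tumours and 58.8, 78.3 and 77.8 in adjacent lung (-0.34 ± 0.27, adjusted p = 0.525). Its exons overlap those of Zmynd15 on the opposite strand by 552 of 3021 bases, and reads in that stretch cannot be told apart without strand. The other 4 CXC ligands, Cxcl9, Cxcl10, Cxcl13 and Cxcl14, did not pass, with log2 fold changes from -2.72 to -0.23.

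**Figure D4:**
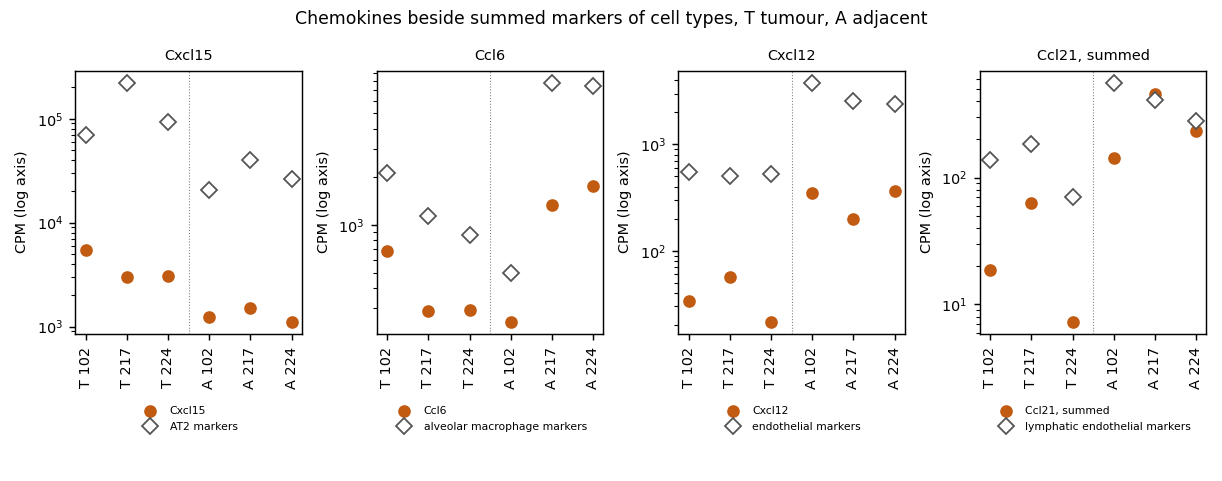
CPM on log axes of 4 members in each lung library (T tumour, A adjacent, with the mouse number), beside the summed CPM of markers of 1 cell type (open diamonds). Cxcl12 and Ccl21 are lower in all 3 tumours, as are the endothelial and lymphatic markers beside them. Ccl6 is lowest in adjacent lung 102, where the summed alveolar macrophage markers, mostly Chil3, are at 495 CPM.

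No conventional receptor was called in the fit without the block, and 9 of the 10 tested had a negative fold change (median -1.25). Cxcr5, which guides B cells to Cxcl13 in follicles, was at 0.171, 1.21 and 0.292 CPM in tumours and at 2.76, 6.03 and 9.18 CPM in adjacent lung. All tumours lay below, and the fold change of -3.43 ± 0.89 narrowly missed (adjusted p = 0.0513). It passed with the block (0.0301), with library totals (0.0287) and without tumour 217 (0.0179). The exons of Cxcr5 overlap those of Bcl9l on the opposite strand by 110 bases. Ccr2, the receptor of inflammatory monocytes, was at 7.2, 23.3 and 7.05 CPM in tumours and at 29.1, 50.9 and 17.4 CPM in adjacent lung. It was lower in the tumour of each mouse while the groups overlapped, and it passed with the block (-1.48, adjusted p = 0.0267) and not without it (-1.37 ± 0.60, adjusted p = 0.218), though it did without tumour 217 (0.0436).

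Cxcr4, the receptor of Cxcl12, had the highest level per kilobase among conventional receptors, 21.1 ± 8.04 CPM per kb in tumours and 32.2 ± 19.2 in adjacent lung. Its CPM was 23.2, 52.3 and 38.9 against 36.8, 98.4 and 39.7, so the groups overlapped (-0.61 ± 0.49, adjusted p = 0.528). Ccr1, a receptor of myeloid cells, came next at 4.47 ± 1.99 and 7.19 ± 1.01 CPM per kb, with 18.5, 7.30 and 12.2 CPM in tumours and 18.4, 23.6 and 19.1 in adjacent lung (adjusted p = 0.373). Ccr9 and Ccr6 were at or below 1.53 and 0.413 CPM in all 6 libraries, and Ccr6 was not tested. The remaining receptors that were tested had fold changes from -2.34 (Cxcr3) to 0.01 (Cx3cr1).

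Markers of the leukocytes that can carry these receptors are given beside them. The pan-leukocyte markers summed to 299 to 388 CPM in tumours and 442 to 1378 in adjacent lung, with 1 of 5 fallen. T cell markers summed to 6.97 to 44.2 against 32.0 to 101 CPM with 0 of 8 fallen, and B and plasma cell markers to 22.9 to 166 against 102 to 654 with 1 of 6, so both sums overlapped between tissues. Dendritic markers summed to 15.5 to 25.6 against 77.3 to 99.5 CPM with 2 of 6 fallen. NK markers were at 0.716 to 1.14 against 7.51 to 15.3 CPM and mast cell and basophil markers at 21.5 to 24.6 against 119 to 203, each with 2 of 4 fallen. The mast cell and basophil sum was mostly Kit, at 19.0 to 23.5 against 109 to 202 CPM. Kit and Ms4a2 fell, and Mcpt8 and Cpa3 were not called. Monocyte and other macrophage markers overlapped, at 635 to 846 against 368 to 972 CPM, with 0 of 7 fallen. The part of these cells in the receptor levels was not tested.

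Both of the atypical receptors that bind homeostatic chemokines fell. Ackr3, which takes up Cxcl12, was at 18.2, 21.7 and 17.4 CPM in tumours and at 47.0, 49.7 and 68.5 CPM in adjacent lung. Values were tight within each group and did not overlap, a 2.89-fold lower level (log2 fold change -1.53 ± 0.30, adjusted p = 0.0221). Ackr4, which removes Ccl19, Ccl21 and Ccl25, was at 0.114, 0.573 and 0.292 CPM in tumours and at 5.02, 3.8 and 3.02 CPM in adjacent lung, 12.1-fold lower (-3.59 ± 0.74, adjusted p = 0.0253). Both calls held with the block and were lost when any 1 library other than tumour 217 was left out (adjusted p up to 0.0883 for Ackr3 and 0.0814 for Ackr4). The exons of Ackr4 overlap Acad11 on the opposite strand by 479 of 5380 bases, and reads in that stretch cannot be told apart. Acad11 carried 14233 counts over the 6 libraries. Ackr2, which removes inflammatory CC chemokines, ranged from 0.845 to 8.81 CPM in tumours and from 1.34 to 17.2 in adjacent lung (-0.87 ± 1.03, adjusted p = 0.697). Lymphatic endothelial markers, beside which Ackr4 and Ccl21 are set because lymphatic vessels are known to make them, summed to 70.2 to 184 CPM in tumours and 281 to 562 in adjacent lung, with 4 of 5 fallen.

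Set side by side by ligand and receptor, Cxcl12 and its scavenger Ackr3 both fell while Cxcr4 did not pass. Ccl11 fell with and without the block and Ccl24 only without it, and their receptor Ccr3 was at 0 in tumours. Cxcl13 had 0.952, 12.5 and 0 CPM in tumours against 17.6, 56.6 and 14.6, without overlap but not called (adjusted p = 0.383), beside Cxcr5. Ccl17 and Ccl22 were higher on average, and Ccr4 stood at or below 0.398 CPM in tumours and 1.74 in adjacent lung. These are values of the same libraries and no relation between them was tested.

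Of 14 further genes of the chemokine system, 11 were tested in lung, 1 rose (9.09%, against 2.86% of all genes) and 2 fell (18.2%, against 7.18%). Pf4, platelet factor 4, which lies between Cxcl5 and Cxcl3, rose from 15.1, 26.1 and 9.67 CPM in adjacent lung to 143, 856 and 412 CPM in tumours (log2 fold change 4.79 ± 0.76, adjusted p = 0.0126). It did not pass without adjacent 102 or adjacent 224 (up to 0.0554). Ppbp, its direct neighbour and the other abundant chemokine of platelets, fell from 30.2, 28.5 and 13.4 to 0.512, 1.85 and 0.496 CPM (-4.66 ± 0.70, adjusted p = 0.0113) and was called without each library in turn. The 2 genes thus moved in opposite directions, with no overlap in either. Other platelet genes, a list of 6 added after these values were seen, summed to 3.04 to 9.09 CPM in tumours and 25.8 to 57.2 in adjacent lung, and 4 of 6 fell. Ccrl2, an atypical receptor that presents chemerin, fell from 30.8 ± 4.17 to 7.38 ± 2.52 CPM (-2.06 ± 0.36, adjusted p = 0.0163). It did not pass without tumour 224, adjacent 102 or adjacent 224 (up to 0.0619).

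The list of receptor signalling genes held 25, all of them tested. Most were genes of G proteins, kinases, arrestins and leukocyte motility downstream of the receptors, and a few were outside these classes. Of the 25, 1 rose (4.0%, against 2.86% of all genes) and 3 fell (12%, against 7.18%). Their median log2 fold change was -1.03, beside 0.04 over all genes. Grk3, a kinase that desensitises receptors including Cxcr4, rose from 91.4 ± 20.3 to 254 ± 43.8 CPM (1.47 ± 0.32, adjusted p = 0.0284). In sorted AT2 cells, which were normalised apart, the mean of Grk3 was 243 CPM in wild-type and 297 CPM in knockout cells. The part of AT2 cells in its rise was not tested. Rgs2, a regulator that ends G protein signals, fell from 59.3 ± 18.1 to 15.6 ± 3.63 CPM (-1.92 ± 0.36, adjusted p = 0.0197). Rgs14, of the same family (-1.80 ± 0.45, adjusted p = 0.0437), and Pik3r5, a subunit of the leukocyte PI3-kinase gamma (-2.17 ± 0.51, adjusted p = 0.0382), also fell. Grk3 passed in none of the 6 fits with 1 library left out (adjusted p up to 0.10). Rgs2 passed in 2 of 6 such fits (up to 0.0744), Rgs14 in 1 (up to 0.162) and Pik3r5 in 1 (up to 0.122). Grk3 also missed the threshold under library totals, Rgs14 without the filter on low counts, and Pik3r5 with the mouse as a block (0.0760).

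In sorted AT2 cells the chemokine RNA was almost wholly Cxcl15. It stood at 5305 ± 1949 CPM per kb in wild-type and 4721 ± 109 in knockout cells, the 6th highest protein-coding gene of 21995 in both, and took 99.1% to 99.5% of the summed ligand CPM of each library. Next per kilobase came Cxcl16, at 14.7 ± 1.91 and 14.3 ± 1.01 CPM per kb. The sorted cells carried AT2 markers at 137830 to 175000 CPM summed, while pan-leukocyte markers summed to 7.74 to 29.7 CPM. T cell markers summed to 0.172 to 1.41 CPM in wild-type and to 1.45 to 2.86 CPM in knockout cells, without overlap. In 12 members no count was seen in any of the 6 libraries. In each group, 22 of 31 ligands had a mean under 1 CPM, and at this depth 3 counts over the wild-type group correspond to 0.0578 CPM.

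No member was called between knockout and wild-type AT2 cells. Of 14053 genes tested, 0 were called with edgeR (0%, with 347 at an unadjusted p under 0.05 and 1 called by DESeq2). Of the 17 members that could be tested, 11 ligands and 6 receptors, 0 were called, and 1 had an unadjusted p under 0.05. The smallest adjusted p was 0.984. The median log2 fold change, knockout over wild type, was 0.11 over the members and -0.01 over all genes. All 3 knockout libraries lay above all 3 wild-type libraries in 1 of the 17 members, Ccl25, where 4.19% of all genes did, and below them in 0, where 4.11% did.

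In wild-type libraries 176, 177 and 190, Cxcl15 had 8125, 15977 and 9746 CPM, and in knockout libraries 175, 179 and 191 it had 10135, 10213 and 9778 CPM. The knockout values lay within the wild-type range, which library 177 widened, and the fold change was -0.17 ± 0.24. Cxcl16 was at 50.5, 43.4 and 39.0 against 39.8, 45.9 and 43.7 CPM (-0.04 ± 0.15), and Cx3cl1 at 12.3, 13.5 and 14.6 against 16.2, 13.8 and 12.8 CPM (0.08 ± 0.18). All 3 of these ligands overlapped between genotypes. Cxcl17 was at 3.18, 12 and 4.76 against 7.42, 7.52 and 6.57 CPM (0.11 ± 0.40), again with the highest value in wild-type 177. Cxcl3, called higher in tumours without the block, was at 1.29, 2.12 and 1.55 against 2.10, 2.74 and 1.75 CPM (0.41 ± 0.37).

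The members of largest fold change were all low. Ccl6 had 0.765, 0.688 and 1.84 CPM in wild-type cells and 3.91, 2.31 and 1.63 CPM in knockout cells (log2 fold change 1.25 ± 0.49, unadjusted p = 0.0266, adjusted p = 0.984). The highest value was that of knockout 175, which also had the highest neutrophil markers (11.3 CPM summed) and pan-leukocyte markers (29.7 CPM) of the 6 libraries. Their part in its level was not tested. Cxcl5 was at 0.823, 4.19 and 1.61 against 1.58, 0.659 and 0.663 CPM (-1.19 ± 0.60), with wild-type 177 far above the rest. Ccr9 was at 0.412, 0.688 and 1.32 against 0.818, 1.26 and 2.83 CPM (1.01 ± 0.58), and its exons overlap those of 3 other genes. Cxcr4 was at 1.41, 1.66 and 2.12 against 4.15, 2.31 and 1.63 CPM (0.63 ± 0.41). Ccl25, at 1.06, 1.89 and 2.01 against 2.16, 2.03 and 3.14 CPM (0.56 ± 0.38), overlaps Elavl1 on the opposite strand by 204 bases.

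The conventional receptor of highest level in AT2 cells was Ccr6, the receptor of Ccl20, at 2.46 ± 0.703 CPM per kb in wild-type and 2.39 ± 0.526 in knockout cells. It was at 7.59, 4.76 and 4.76 against 4.26, 6.70 and 5.67 CPM, and in no whole lung library did it exceed 0.413 CPM. The tables were normalised apart, so this difference between sorted cells and tissue is a description. Of the atypical receptors, Ackr3 had no counts in AT2 cells, and Ackr2 and Ackr4 stayed at or below 0.175 and 0.401 CPM. Of the members that fell in tumours, Ccl11, Ccl24 and Ackr3 were at 0 in all AT2 libraries and Cxcl12 at or below 0.292 CPM. Of the 14 further chemokine system genes and the 25 genes of the signalling list, 0 were called in AT2 cells.

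**Figure D5:**
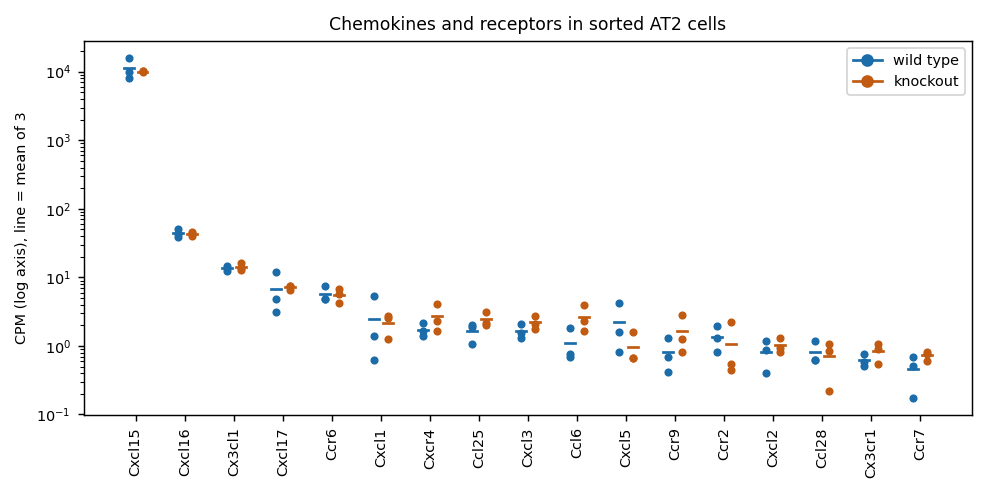
CPM on a log axis of the 17 members tested in AT2 cells, in order of mean level, with a point for each of 3 wild-type and 3 knockout libraries and a line at the group mean. Cxcl15 lies far above all others in both genotypes, and every member except Ccl25 overlaps between them.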

How the data were processed

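Poly-A RNA of 12 libraries in 4 groups of 3 was sequenced. Per the labels' protocols, the kit was NEBNext Ultra RNA, so strand is not recorded. The authors deposited raw counts per gene, 1 table for lung and 1 for AT2 cells. Per the submitters' processing notes, the tools include HISAT2, Trimmomatic 0.39, DESeq2 1.28.1, FastQC and StringTie 1.3.3b, with GRCm38 (mm10) as the build. How alignments became counts, with which annotation and strand setting, is not given in the sources used here.

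Names, coordinates and exon lengths came from GENCODE M21 (GRCm38). Identifiers without a name, 1035 in lung and 37 in AT2 cells, held 0.0388% and 0.00383% of counts. Where a name had 2 identifiers (Ccl19 and Ccl21a), the one with more counts was used. Each table was fitted whole in R 4.3.3 with edgeR 4.0.16 (filterByExpr, TMM, quasi-likelihood test, group as the only term, Benjamini-Hochberg over all genes, threshold 0.05). The fit was also run on simulated data without a mouse effect, where the only condition was on the direction of the fold changes. Levels are mean ± SD of CPM and fold changes are log2 ± SE. The SE was worked back from the test, as the absolute log2 fold change over the square root of its F statistic. The numbers pair the lung samples, since they name the animal. Deviations from group means correlated across genes at 0.358, 0.544 and 0.459 within mice 102, 217 and 224 and at -0.393 to 0.0254 between mice. Within groups, no 2 libraries agreed to within sampling noise (chi-square over its degrees of freedom at least 7.23). P-values in AT2 cells and lung rest on 3 animals a group. Alternatives were DESeq2's size factors, library totals, DESeq2 1.42.0, no filter, the mouse as a block, leaving out each library or both libraries of mouse 217 and, added after seeing the data, both libraries of mouse 102 and near-identical copies summed. Promoters came from RefSeq (GRCm38.p6).

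Named with values in every library were the members with an adjusted p under 0.05 in a lung or AT2 fit or the block fit, the 2 of highest CPM per kb in each class and group, the 4 of largest fold change in AT2 cells with at least 1 CPM, and those without overlap in AT2 cells. From the other lists only genes that passed were named, at most 4 a list. Exceptions are said to be chosen after their values were seen. The members and lists were chosen with earlier results of these data known.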

Additional observations from a re-analysis of the deposited data

How the results depend on the processing

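In lung, 2007 genes were called, and 3729 with DESeq2's test, 847 without both libraries of mouse 217 and 0 with edgeR without both libraries of mouse 102, which leaves 2 mice (4034 at an unadjusted p under 0.05). Leaving out 1 library gave 598 to 1854. Library totals gave 393 genes higher and 1840 lower, against 571 and 1436. Chemokine members called higher were 2, and 1 under library totals, 4 with DESeq2's test (Cxcl3, Cxcl15, Cxcl17 and Cx3cl1), 0 without the filter, 0 without mouse 217, 0 without mouse 102 and 0 to 2 without 1 library. Members called lower were 5, and 9 with DESeq2's test, 2 without mouse 217 (Ccl11 and Cxcl12), 0 without mouse 102 and 1 to 10 without 1 library, the 10 without tumour 217. Of all genes tested, 5.73% were called higher with DESeq2's test, 1.97% under library totals, 1.31% without the filter and 0.726% without mouse 217. Called lower were 12.9% of all genes with DESeq2's test, 3.4% without mouse 217 and 6.57% without tumour 217. Without 1 library, the all-gene shares were 0.659% to 2.17% higher and 2.22% to 6.57% lower. With the mouse as a block, 2980 genes, 3 members higher and 6 lower were called, against 2007, 2 and 5. Genes called higher went from 571 to 1113 under the block, 1.95 times, and genes called lower from 1436 to 1867, 1.3 times. The named calls the block changed are Cxcl3, Ccl24, Ccl17, Cxcl15, Ccr2, Cxcr5 and Pik3r5, given above, and it changed no other named call. In AT2 cells 0 genes were called, 1 with DESeq2's test, 17 without the filter and 0 to 1 without 1 library, and 0 members under every alternative run. No called member changed sign. For the named members called in lung, 52 alternative values kept the call and 46 lost it. For those not called, 184 stayed uncalled and 12 gained a call, and in AT2 cells, where no member was called, all 120 stayed uncalled. Fits with a library left out hold fewer samples, and the cause of the other moves was not tested. Depth limits the members under 1 CPM, 11 in tumours, 6 in adjacent lung and 34 and 33 in wild-type and knockout AT2 cells.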

Other observations

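On chromosome 5, the stretch just after the end of Cxcl15 holds an unclassified transcript of the same strand, Gm43085 (90803261 to 90806392), named here after its values were seen. Its mean was 501 CPM in tumours and 129 CPM in adjacent lung, beside 3854 and 1284 CPM for Cxcl15. No coding gene of the CXC cluster lies between Cxcl15 and Cxcl1. Of the 7 CXC genes there, the means of Cxcl5, Pf4, Cxcl3, Cxcl15 and Cxcl1 were higher in tumours and those of Ppbp and Cxcl2 lower.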
